A study of Peromyscus maniculatus with 16 samples.

Results

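Interferon response and antigen processing genes were followed through the livers of 16 deer mice (Peromyscus maniculatus). They were taken from a written list of 51 gene symbols known for signalling from interferon, sensing viral RNA, blocking viral growth, modifying proteins with ISG15, ubiquitin or ADP-ribose, attracting lymphocytes, and cutting and presenting antigen. Of the 51 symbols, 44 had a line in the count table, which holds 16910 genes in all. Ifit1, Ifit3, Isg20, Mx1, Mx2, Oas1a and Rtp4 were not analysed here.

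RNA came from whole livers taken at an age of 10 months, after 28 weeks on regular food or on food rich in fat and sucrose (HFD). The 6 animals on the regular diet form group C. The HFD animals were divided by whether the liver had accumulated fat (steatosis) into 5 without steatosis, group NS, and 5 with steatosis, group S. Steatosis was recorded at the end and was not assigned. Of the 16 animals, 13 were of the BW stock (P. maniculatus bairdii, bred as a closed captive colony from wild-caught ancestors). The other 3 were of the SM2 stock (P. maniculatus sonoriensis, also descended from wild-caught animals), with 1 SM2 male in each group, C 10876, NS 10865 and S 10880. All 6 C and all 5 NS animals were male. Group S held 3 BW females, 35955, 35982 and 35990, beside the males 10880 and 36016, so that a difference between females and males and one between S and the other groups can be told apart only through those 2 males. Animals carry the numbers of their labels.

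Interferons other than interferon gamma are secreted when cells sense foreign nucleic acid. All interferons act through receptors, JAK kinases and STAT proteins to switch on a large set of genes that hold back viruses. Interferon gamma in addition raises the immunoproteasome, the peptide transporter and the other parts that load peptides on MHC class I, under the regulator NLRC5, while CIITA governs the MHC class II genes. In the liver hepatocytes respond to interferon, whereas class II genes such as Cd74 belong mainly to macrophages, dendritic cells and B cells.

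Counts per gene summed to between 4640733 and 11349971 in an animal, with group medians of 9299003.5 in C, 8258292 in NS and 8113314 in S. Values are given as counts-per-million (CPM) of a scaled total, the animal's total over the genes tested times its TMM factor. The factors, which adjust for differences in composition between animals, ran from 0.851 in C 36007 to 1.165 in S 35990. The filter described below used CPM before this scaling. Hepatocyte markers fitted the labelled tissue: 6 of 8 listed genes were in the table, with the highest mean CPM over the animals for Apoa1, though not in every animal, and their sum ran from 34842 CPM in S 35990 to 68104 CPM in NS 35930. In whole liver, fewer cells of a type and less RNA per cell cannot be told apart.

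Oas2 and Oas3, members of the family that makes the second messenger activating RNase L, lay near the floor of detection. Their highest counts were 10 in NS 35987 and 5 in C 35998, and 15 of 16 animals had 3 counts or fewer of either gene, so that no difference could be read from them at this depth. The other 42 members had over 10 counts in at least 1 animal, and all 44 passed the filter of at least 0.5 CPM in 1 animal that left 12639 genes for testing.

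A few animals held many of the extreme values. S 36016 had the lowest value of the 16 animals in 12 of 44 members (27.3%), against 13.2% of all genes tested, and it also had the fewest counts and 2058 CPM of the collagen gene Col1a1, which no other animal carried above 17.0 CPM. C 10876, an SM2 animal, was lowest in 11 members (25%), against 7.7% of all genes. S 35990 was highest in 9 members (20.5%), against 9.57% of genes, and S 35982 and NS 35987 in 8 each (18.2%), against 6.30% and 4.04%. C 36001 was highest in 4 (9.09%), namely Rsad2, Cmpk2, Oasl1 and Isg15, against 4.73% of genes. The SM2 animal S 10880 was highest in 5 (11.4%), all of class I processing (Tap1, Tap2, Psmb8, Psmb9 and Nlrc5), against 9.05% of genes. These patterns stand out in the heatmap of members by animal.

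**Figure D1:**
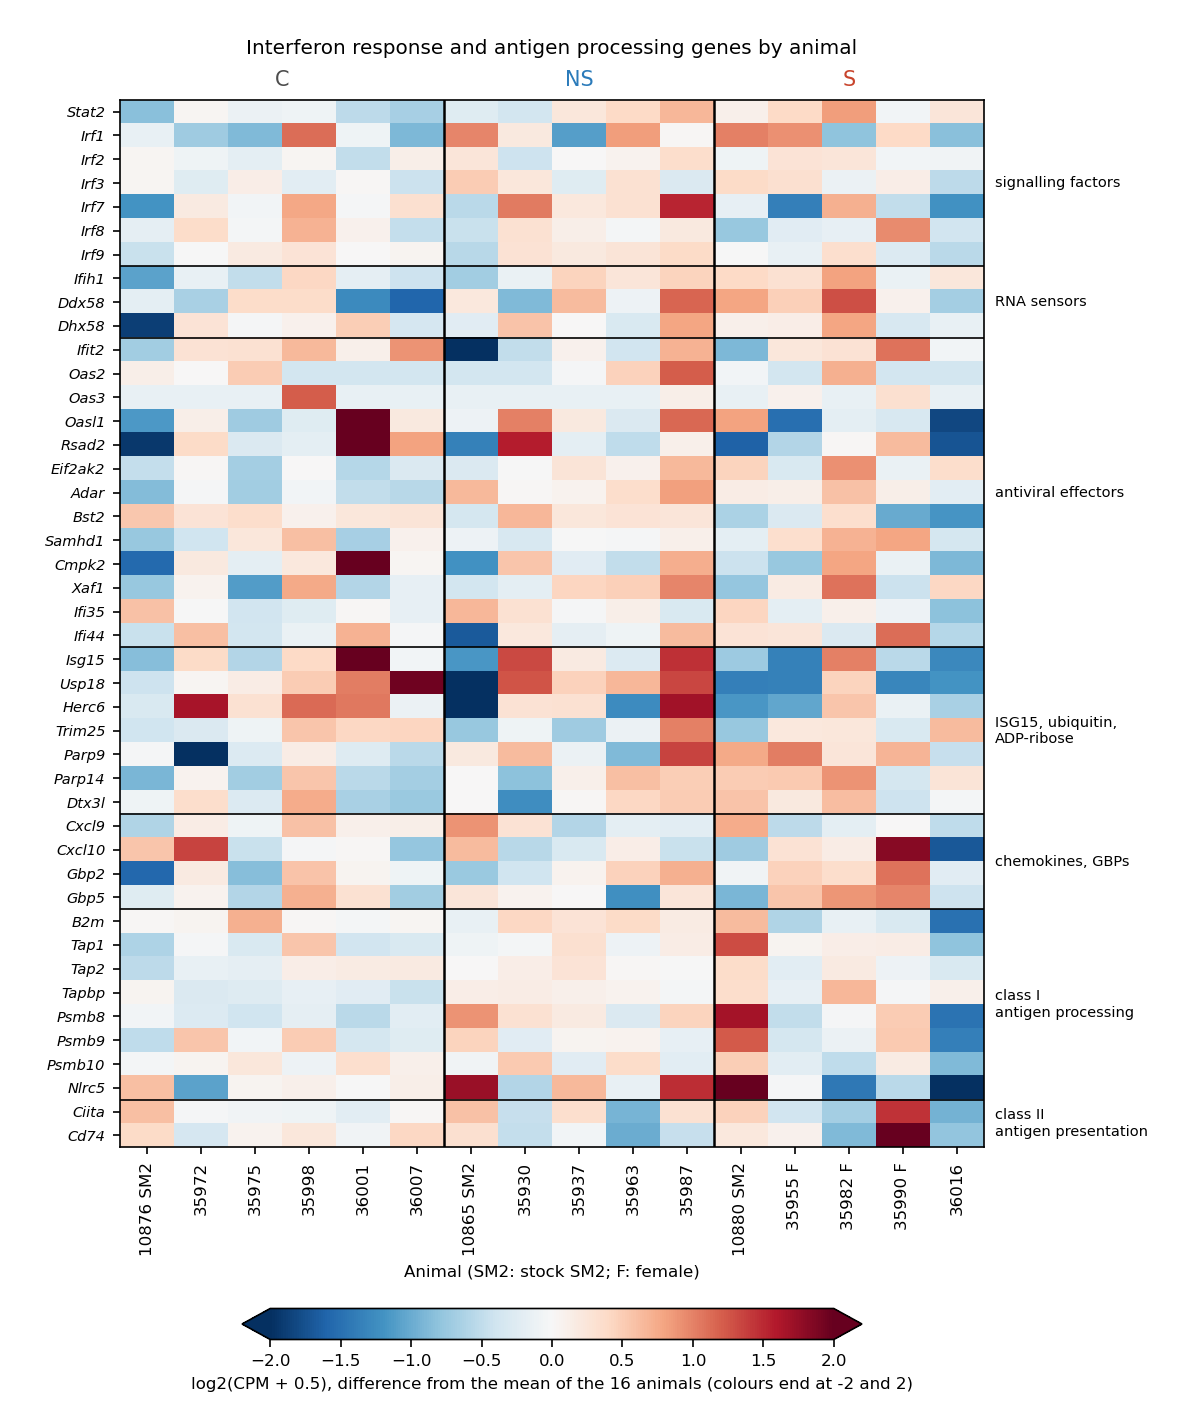
Difference of log2(CPM + 0.5) from the mean of the 16 animals for the 44 members (lines, grouped by role) in each animal (columns, by group, SM2 animals and females marked), red above and blue below that mean. C 36001 stands out in Rsad2, Cmpk2, Oasl1 and Isg15, S 35990 in Cd74 and Ciita, and S 10880 in the class I members, while S 36016 is low in most class I members.

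The median member varied more between animals than the median gene, in a comparison not matched for expression level. The standard deviation (SD) of log2(CPM + 0.5) over the 13 BW animals had a median of 0.514 over the 44 members and 0.388 over the 12639 genes tested, and over all 16 animals the medians were 0.585 and 0.425. Rsad2 had an SD of 1.56 among BW animals, above that of 99.2% of genes, followed by Oasl1 with 1.19 and Nlrc5 with 1.13. Cmpk2, Isg15 and Usp18 reached 1.08, 1.05 and 1.04. C 36001 alone held 10.3, 3.3 and 6.82 times the CPM of the next animal for Rsad2, Oasl1 and Cmpk2, which widens their SD. The peptide transporter subunit Tap2 was among the steadiest of all genes, with an SD of 0.184, above that of 6.58% of genes, and Irf2 and Irf9 followed with 0.249 and 0.267.

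Steatotic livers of HFD animals were first set against livers of animals on regular diet (S vs C). Adar, an RNA-editing enzyme, Stat2, a transcription factor that carries the interferon signal, and Tapbp, which holds MHC class I at the peptide transporter, rose in S by 0.60, 0.68 and 0.43 on the log2 scale, and each was above the C median in 5 of 5 S animals. Bst2, a membrane tether of budding virus, fell by 0.75 and was below the C median in 4 of 5. All were changes of less than 2-fold. These 4 of 44 members (9.09%) passed an adjusted p under 0.1 in edgeR's quasi-likelihood test, against 1359 of 12639 genes (10.8%). A call also required a fold of at least 2, and edgeR called 0 of 44 members, against 513 genes (4.06%), of which 391 were higher and 122 lower in S. At an unadjusted p under 0.05 edgeR had 10 members (22.7%), against 3010 genes (23.8%). In 0 members did S and C values fail to overlap, against 529 genes (4.19%). By each of these edgeR counts the members' share was no larger than that of all genes. DESeq2 called 1 member (2.27%), Usp18, against 550 genes (4.35%), and 6 (13.6%) passed its adjusted p, these 4 with Eif2ak2 and Usp18, against 1811 genes (14.3%). Its 12 members at an unadjusted p under 0.05 (27.3%) were a larger share than its 2944 genes (23.3%). DESeq2 gave no adjusted p to 3 of the 44, Oas2, Oas3 and Rsad2, nor to 1202 genes in all, and these stay in its totals. In the comparisons below it gave none to 4 members where NS is compared with C or with S (Gbp5 in addition) and to 3 in SM2 vs BW (Cmpk2, Oas3 and Rsad2). The median log2 fold change of the members was 0.20, with 26 of 44 above 0, and that of all genes 0.10, with 7305 of 12639 above 0.

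Single animals moved these S vs C counts. The 4 members past adjusted p became 8 without C 35998, 2 without S 10880, S 35982, NS 35963 or C 35972, 1 without S 36016, and 0 without C 35975, 36001 or 36007. The count of called members, 0 with all animals, was 2 without C 10876 (Rsad2 and Usp18) or S 35982 (Bst2 and Usp18) and 1 without NS 10865 (Usp18) or C 35998 (Rsad2). Genes called in all came to 192 without C 36007, 219 without C 35975, 245 without S 36016 and 247 without C 36001, in place of 513. The fit of the diet groups left stock out. With stock as a covariate 2 members were called, Rsad2 and Usp18, against 659 genes, and 8 passed adjusted p, the 4 above with Eif2ak2, Ifih1, Rsad2 and Usp18. With sex as a covariate, Bst2 was the 1 member past adjusted p, and it was called, against 768 genes.

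HFD livers without steatosis were compared with regular diet livers next (NS vs C). The member with the smallest p was Adar, 0.85 higher on the log2 scale, and all 5 NS animals lay above all 6 C animals. Tapbp was higher in 4 of 5 NS animals than in any C animal, with a log2 fold change of 0.30. No member passed the adjusted limit: edgeR called 0 of 44 members, with or without the fold limit, while 5 had an unadjusted p under 0.05 (11.4%), Adar, Eif2ak2, Rsad2, Stat2 and Tapbp. DESeq2 called 0 and had 1 member (2.27%), Adar, past the adjusted limit alone and 3 (6.82%) at the unadjusted p, against 53 genes called (0.419%), 114 (0.902%) and 1072 (8.48%). Over all genes edgeR called 9 (0.0712%), had 10 past adjusted p alone (0.0791%) and 1048 at an unadjusted p under 0.05 (8.29%). Non-overlapping groups were found for 1 member (2.27%), Adar, and for 125 genes (0.989%). The members' median log2 fold change was 0.097, with 29 of 44 above 0, against 0.0075 and 6426 of 12639 for all genes. In edgeR the members' shares were above those of all genes at the unadjusted p and for groups that did not overlap, by 1 gene in the latter case, and below them for calls, and the C animals are the same as in S vs C. Without NS 35930 Adar passed the adjusted limit (log2 fold change 0.94, adjusted p = 0.0889, with adjusted p from 0.0144 to 0.502 over all alternatives), and the 9 genes called became 29. They became 2 without NS 35963 or NS 35987, 3 without NS 35937 and 4 without C 35972. The 5 members at unadjusted p under 0.05 became 8 without C 35998, 3 without NS 35987, NS 35937, S 36016 or C 35975, 2 without NS 35963 or C 36007 and 1 without C 36001.

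Within HFD, livers with and without steatosis were compared (S vs NS). The lowest p belonged to Bst2, -0.70 on the log2 scale, and the others at an unadjusted p under 0.05 were Usp18 at -1.56, Irf7 at -1.0 and Cd74 at 1.01. EdgeR called 0 of 44 members, with or without the fold limit, against 1 gene by either rule (0.00791%), and 4 members (9.09%) were at an unadjusted p under 0.05, against 1381 genes (10.9%). DESeq2 likewise called 0 members, against 71 genes (0.562%), and had 4 at that unadjusted p, against 1273 genes (10.1%). No member's groups were free of overlap, against 149 genes (1.18%). The median member stood at 0.00030 on the log2 scale, 22 of 44 above 0, and the median gene at 0.039. Among the males Bst2 was called (log2 fold change -1.13, adjusted p = 0.0592, with adjusted p from 0.0592 to 0.928 over all alternatives). Leaving out NS 35987, NS 35930 or S 35990 took the 4 members at unadjusted p to 2, and the 1 gene called became 15 without S 10880, 5 without S 36016, 3 without S 35990 and 2 without S 35955.

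The 3 SM2 animals were also compared with the 13 BW animals (SM2 vs BW), with diet group in the model, which called 6 of 44 members (13.6%), against 1370 genes (10.8%, 747 higher and 623 lower in SM2). Reads of both stocks were aligned to the same genome and only those with a unique position were counted. Whether reads of both stocks mapped equally well at each gene was not tested, here or for the pathway genes below. Nlrc5, the class I regulator, and the immunoproteasome subunit Psmb8 rose by 1.95 and 1.06 on the log2 scale. The antiviral gene Ifit2, the ligase gene Herc6, the ISG15 protease gene Usp18 and the GTPase gene Gbp2 fell by 1.75, 1.75, 1.68 and 1.04. On adjusted p alone 8 members passed (18.2%), against 2752 genes (21.8%), the further ones being Ifi35, which rose by 0.67, and Trim25, which fell by 0.85. At an unadjusted p under 0.05 there were 16 members (36.4%), against 3677 genes (29.1%), and Ifi35 and Ifit2 were the 2 members (4.55%) whose stocks did not overlap, against 861 genes (6.81%). The median member was lower in SM2, at -0.17 with 18 of 44 above 0, where the median gene stood at -0.037 with 5957 of 12639 above 0. In edgeR the members' shares were above those of all genes for calls and the unadjusted p and below them by the other counts. DESeq2 called 7 members (15.9%), adding Isg15, against 1319 genes (10.4%), and 12 (27.3%) passed its adjusted p, adding Dhx58, Ifih1, Isg15 and Xaf1 to the 8, against 2924 genes (23.1%), so that there the share was above that of all genes. Only 1 SM2 animal stood in each group, and leaving out NS 10865 took the called members from 6 to 3, those past adjusted p from 8 to 4, those at unadjusted p under 0.05 from 16 to 6, and the genes called from 1370 to 868. Without C 10876 there were 5 called, with Cxcl9 and Psmb9 gained and Gbp2, Herc6 and Usp18 lost. Without S 10880 there were also 5, with Dhx58 and Irf7 gained and Herc6, Nlrc5 and Psmb8 lost. Some members that did not pass the adjusted limit with all animals passed it without 1 animal. Among them were Stat2 without NS 35930, Cd74 and Ciita without S 35990 and Cmpk2 without C 36001, with others given below. Over all alternatives of this comparison the adjusted p of Stat2 ran from 0.0739 to 0.375.

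**Figure D2:**
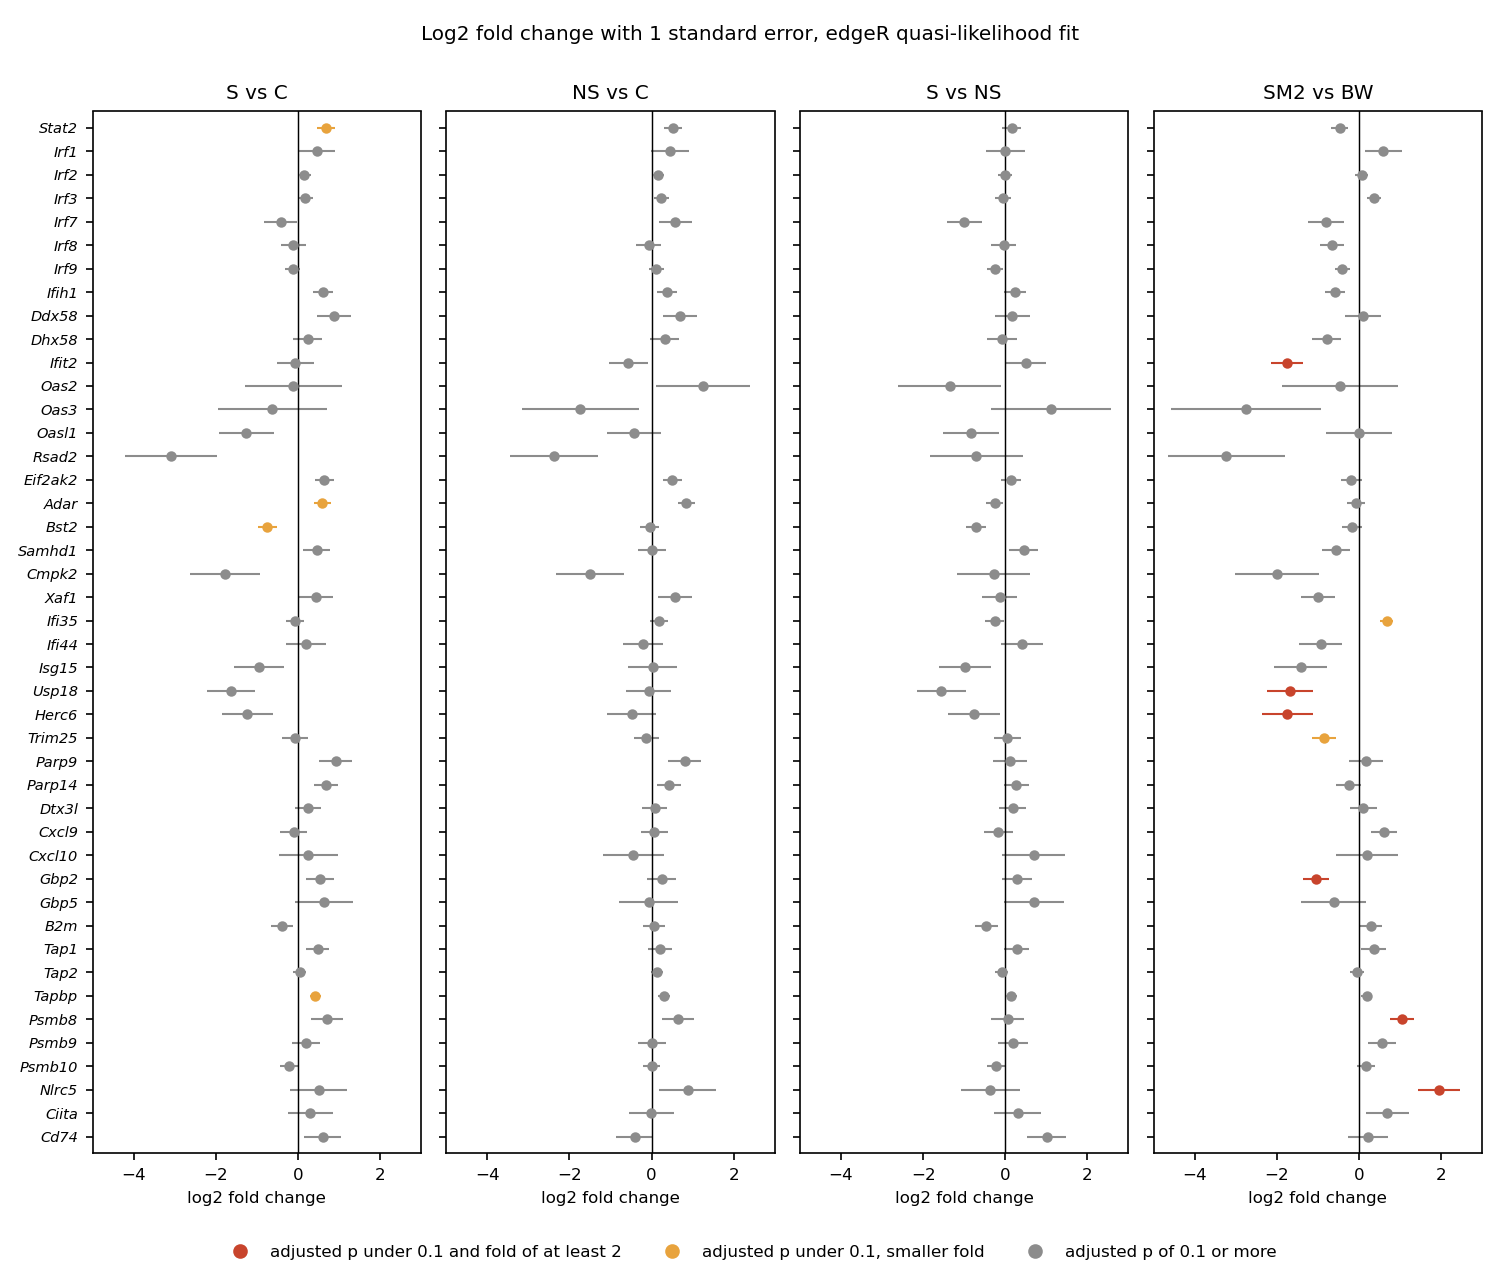
Log2 fold change with 1 standard error of each of the 44 members (vertical axis, by role) in the 4 comparisons, from the quasi-likelihood fit over 16 animals, coloured by whether the adjusted p was under 0.1 and the fold at least 2. Red points, past both limits, appear in SM2 vs BW only, for 6 members, and orange points, past the adjusted p alone, in S vs C for 4 members and in SM2 vs BW for Ifi35 and Trim25.

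Among the 7 signalling factors, 4 had a log2 fold change above 0 in S vs C (median 0.15) and 6 in NS vs C (median 0.24), and in SM2 vs BW the median was -0.40 with 3 above 0. Stat2 acts with Irf9 at interferon-stimulated response elements. Stat2 lay between 22.6 and 42.2 CPM with a median of 32.8 in C. In NS, Stat2 stood at 31.7, 34.3, 47.6, 53.8 and 64.7 CPM and in S at 39.4, 44.0, 48.4, 54.2 and 73.4 CPM. Of the 5 S animals 4 were above every C animal, and 3 of the NS animals were. Stat2 rose in S vs C (log2 fold change 0.68 ± 0.22, adjusted p = 0.0804, SE after ±, here and below) and had a log2 fold change of 0.52 ± 0.22 (adjusted p = 0.580) in NS vs C. In S vs C it no longer passed without C 10876, 35975, 36001 or 36007 or S 35955, 35982 or 36016 (log2 fold change from 0.52 to 0.73, adjusted p from 0.118 to 0.179), nor with sex as a covariate (0.51, adjusted p = 0.307), in males alone (0.52, adjusted p = 0.306) or without C 36001, S 35990 and S 36016 together (0.78, adjusted p = 0.201), and over all alternatives its adjusted p ran from 0.0370 to 0.307.

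Irf7, the factor that amplifies interferon alpha production, was between 15.6 and 62.4 CPM with a median of 38.4 in C. Irf7 values in NS were 25, 42.1, 45.0, 74.8 and 105 CPM and in S 13.8, 15.4, 25.7, 32.4 and 59.5 CPM. The groups overlapped widely, with 4 of 5 S animals below the NS median. With all animals Irf7 passed no adjusted limit (log2 fold change -1.0 ± 0.43, adjusted p = 0.419 in S vs NS, with adjusted p from 0.252 to 0.928 over the alternatives). Irf9, the DNA-binding partner of Stat2, passed in no diet comparison, with a log2 fold change of -0.13 ± 0.18 between S and C and of 0.12 ± 0.18 between NS and C. The lowest Irf9 values of C and NS belonged to the SM2 animals, 42.9 CPM in C 10876 and 40.0 CPM in NS 10865, and SM2 vs BW gave a log2 fold change of -0.40 ± 0.18 (adjusted p = 0.147). It passed that limit without S 10880, the SM2 animal with 58.7 CPM (-0.67, adjusted p = 0.0422), without S 36016 (-0.44, adjusted p = 0.0638) and without C 36001, S 35990 and S 36016 together (-0.52, adjusted p = 0.0353), in a range of 0.0353 to 0.610 over all alternatives. With all animals Irf1, Irf2, Irf3 and Irf8 passed in no comparison, though Irf3 did in SM2 vs BW with sex as a covariate, with log2 fold changes between -0.11 and 0.46 in S vs C.

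The 3 RNA sensors, whose products bind viral RNA in the cytoplasm and signal for interferon, all had log2 fold changes above 0 in both HFD groups against C, with medians of 0.61 in S and 0.38 in NS. Ifih1 (MDA5) was between 11.2 and 32.4 CPM with a median of 19.6 in C. Ifih1 in NS read 14.6, 21.9, 28.4, 33 and 33 CPM and in S 22, 28.3, 29.8, 31.9 and 42.4 CPM. The S animals were all above the C median, yet 4 of 5 of them lay within the C range. The test gave a log2 fold change of 0.61 ± 0.25 (adjusted p = 0.155) in S vs C, and it passed without C 35998, the C animal with the highest value (0.80, adjusted p = 0.0629), and with stock as a covariate (0.68, adjusted p = 0.0668), range 0.0629 to 0.336 over all alternatives. Ddx58 (RIG-I) had a log2 fold change of 0.87 ± 0.42 (adjusted p = 0.212) and Dhx58 (LGP2) a log2 fold change of 0.24 ± 0.35 (adjusted p = 0.717). In SM2 vs BW, Ifih1 had a log2 fold change of -0.58 ± 0.25 (adjusted p = 0.125) and Dhx58 a log2 fold change of -0.79 ± 0.35 (adjusted p = 0.148). Ifih1 passed there without S 10880 or 35990 (log2 fold change from -0.96 to -0.65, adjusted p from 0.0437 to 0.0671), with DESeq2 (-0.57, adjusted p = 0.0942), with sex as a covariate (-0.70, adjusted p = 0.0998), in males alone (-0.70, adjusted p = 0.0890) and without C 36001, S 35990 and S 36016 together (-0.71, adjusted p = 0.0534). Dhx58 passed without S 10880 (-1.23, adjusted p = 0.0861), with DESeq2 (-0.78, adjusted p = 0.09999) and without C 36001, S 35990 and S 36016 together (-0.92, adjusted p = 0.0688). Over the alternatives of that comparison the adjusted p ran from 0.0437 to 0.474 for Ifih1 and from 0.0688 to 0.575 for Dhx58.

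Of the 13 antiviral effectors, 5 had log2 fold changes above 0 in S vs C (median -0.068) and 6 in NS vs C (median -0.048). Adar, whose interferon-inducible form edits adenosine to inosine in double-stranded RNA, was between 14.6 and 26.4 CPM with a median of 18.6 in C. Adar reached 27.5, 28.4, 34.7, 42.4 and 48.2 CPM in NS and 23.3, 29.1, 29.4, 29.8 and 40.6 CPM in S. Every NS animal was above every C animal, as were 4 of 5 S animals. Adar rose in S (log2 fold change 0.60 ± 0.20, adjusted p = 0.0865) and did not pass in NS (log2 fold change 0.85 ± 0.20, adjusted p = 0.187), although the fold was the larger there and it passed with DESeq2 (0.84, adjusted p = 0.0144), and S vs NS gave a log2 fold change of -0.25 ± 0.21 (adjusted p = 0.671). The S vs C pass ended without C 10876, 35975, 36001 or 36007, NS 35963 or S 10880, 35955, 35982 or 35990 (log2 fold change from 0.48 to 0.62, adjusted p from 0.103 to 0.184), with no filter (0.60, adjusted p = 0.1002), with sex as a covariate (0.41, adjusted p = 0.377), in BW animals alone (0.53, adjusted p = 0.141), in males alone (0.41, adjusted p = 0.398) and without C 36001, S 35990 and S 36016 together (0.70, adjusted p = 0.209). Its adjusted p ran from 0.0446 to 0.398 over all alternatives of S vs C.

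Bst2 (tetherin) went the other way. In C, Bst2 lay between 190.0 and 259 CPM with a median of 214. Bst2 in NS was 141, 210.0, 212, 215 and 284 CPM, and in S 78.6, 88.5, 115, 146 and 225 CPM. In S, 4 of 5 animals were below every C animal, and the female 35982 was within the C range. Bst2 fell in S vs C (log2 fold change -0.75 ± 0.23, adjusted p = 0.0744) and had a log2 fold change of -0.70 ± 0.24 (adjusted p = 0.346) in S vs NS. With sex as a covariate the S vs C difference exceeded 2-fold (-1.18, adjusted p = 0.0444), and with males alone it was the same size (-1.18, adjusted p = 0.0231), which sets the 2 males 36016 and 10880 against 6. The pass was lost without C 10876, 35972, 35975, 36001 or 36007 or S 10880, 35990 or 36016 (log2 fold change from -0.76 to -0.61, adjusted p from 0.102 to 0.149), in BW animals alone (-0.65, adjusted p = 0.125) and without C 36001, S 35990 and S 36016 together (-0.46, adjusted p = 0.365), and over all alternatives the adjusted p ran from 0.0231 to 0.365. Eif2ak2 (PKR), which stops translation on sensing double-stranded RNA, was between 7.21 and 12.0 CPM with a median of 8.95 in C, and stood at 9.58, 11.8, 12.6, 14.2 and 18.9 CPM in NS and 9.5, 10.8, 15.2, 16.3 and 22.6 CPM in S. All 5 animals of each HFD group were above the C median, with 3 of each above every C animal. Eif2ak2 did not pass in S (log2 fold change 0.65 ± 0.24, adjusted p = 0.112) or NS (log2 fold change 0.51 ± 0.24, adjusted p = 0.594). In S vs C it passed without C 35998, NS 10865 or S 35955 or 35990 (log2 fold change from 0.65 to 0.78, adjusted p from 0.0755 to 0.0968), with DESeq2 (0.65, adjusted p = 0.0775), with the stricter filter (0.67, adjusted p = 0.0919) and with stock as a covariate (0.66, adjusted p = 0.0868), range 0.0755 to 0.258 over all alternatives.

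Rsad2 (viperin) and its neighbour Cmpk2, which together make an antiviral nucleotide, were dominated by 1 regular diet animal. C 36001 carried 121 CPM of Rsad2, where the other C animals had between 0.590 and 6.77 CPM, a value 10.3 times that of the next animal of any group, NS 35930. In NS, Rsad2 was 1.13, 2.42, 3.12, 3.95 and 11.8 CPM, and in S 0.751, 0.853, 2.27, 3.71 and 5.91 CPM. Cmpk2 in C 36001 was 24.0 CPM, 6.82 times the next animal. Leaving out this animal took the Rsad2 log2 fold change in S vs C from -3.08 ± 1.12 (adjusted p = 0.113) to -0.42, adjusted p = 0.765. With sex as a covariate it went the other way, to -4.83, adjusted p = 0.155, and in males alone to -4.83, adjusted p = 0.193. Without C 36001 the direction in NS vs C turned from -2.38 ± 1.07 (adjusted p = 0.594) to 0.29, adjusted p = 0.968. For Cmpk2 the NS vs C value of -1.50 ± 0.84 (adjusted p = 0.657) turned to 0.24, adjusted p = 0.970. With C 36001 kept, Rsad2 passed in S vs C without C 10876 (-3.34, adjusted p = 0.0835), without C 35998 (-3.31, adjusted p = 0.0885) and with stock as a covariate (-2.80, adjusted p = 0.0972). Over the alternatives except DESeq2, which gave it none, the adjusted p of Rsad2 ran from 0.0835 to 0.765 in S vs C and from 0.352 to 0.968 in NS vs C, and that of Cmpk2 in NS vs C from 0.503 to 0.970 over all alternatives. Rsad2 was lowest in the SM2 animals of C and NS, 0.590 and 1.13 CPM, with 0.853 CPM in S 10880. SM2 vs BW gave a log2 fold change of -3.23 ± 1.42 (adjusted p = 0.139), and Rsad2 passed without C 36001 (-2.31, adjusted p = 0.0219) and without C 36001, S 35990 and S 36016 together (-2.29, adjusted p = 0.0131), range 0.0131 to 0.408 over the alternatives except DESeq2.

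Between stocks, 1 of 13 effectors had a log2 fold change above 0, with a median of -0.56. Ifit2, which binds viral RNA and restrains its translation, was 0.630, 2.07 and 2.46 CPM in the SM2 animals and between 2.91 and 9.73 CPM with a median of 5.35 in the BW animals. Ifi35, an interferon-induced leucine zipper protein, was 83.7, 94.2 and 99.3 CPM in SM2 and between 34.9 and 77.4 CPM with a median of 58.1 in BW. In both genes the stocks did not overlap, with all 3 SM2 animals below the 13 BW animals for Ifit2 and above them for Ifi35. Ifit2 fell (log2 fold change -1.75 ± 0.38, adjusted p = 0.00558) and Ifi35 rose by less than 2-fold (log2 fold change 0.67 ± 0.16, adjusted p = 0.00748), and both passed the adjusted p under 0.1 without each animal in turn. Within the diet groups Ifit2 stood at -0.56 ± 0.47 for NS vs C, and at 0.50 ± 0.49 for S vs NS, the latter turning to -0.29 with sex as a covariate. The IFIT and OAS families hold close paralogs, and since only uniquely mapped reads were counted, reads shared by copies were left out, which makes their values less certain. Xaf1, a partner of apoptosis inhibitors, had a log2 fold change of -1.0 ± 0.41 (adjusted p = 0.112) and passed without C 35975, NS 35930 or S 35990 (log2 fold change from -1.07 to -1.06, adjusted p from 0.0705 to 0.0923), with DESeq2 (-0.99, adjusted p = 0.0707) and without C 36001, S 35990 and S 36016 together (-1.10, adjusted p = 0.0773), range 0.0705 to 0.361 over all alternatives. Samhd1, which depletes nucleotides needed by retroviruses, stayed between 1.57 and 5.53 CPM over the 16 animals, and its S vs NS value of 0.45 ± 0.35 turned to -0.24 among males. Oasl1 had its highest value in C 36001, 191 CPM, where the next animal had 58.0 CPM, and was called between S and C in BW animals alone, and Ifi44 lay between 0.252 and 4.77 CPM.

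Of the 7 modifiers, 3 had log2 fold changes above 0 in S vs C (median -0.076) and 2 in SM2 vs BW (median -0.85). Usp18 removes ISG15 from proteins and damps signalling at the interferon receptor. Usp18 was between 6.79 and 36.8 CPM with a median of 11.8 in C. In NS, Usp18 measured 1.64, 12.9, 14.9, 22.7 and 24.2 CPM, and in S 3.29, 3.31, 3.43, 3.75 and 12.8 CPM. In S, 4 of 5 animals lay below every C animal, the exception being the female 35982. EdgeR gave a log2 fold change of -1.63 ± 0.58 (adjusted p = 0.105) for S vs C and a log2 fold change of -1.56 ± 0.59 (adjusted p = 0.390) for S vs NS. Usp18 passed in S vs C without C 10876, NS 10865 or S 35982 (log2 fold change from -2.22 to -1.63, adjusted p from 0.0537 to 0.0932), with DESeq2 (-1.61, adjusted p = 0.0393), with the stricter filter (-1.61, adjusted p = 0.0988), with stock as a covariate (-1.53, adjusted p = 0.0589), in BW animals alone (-1.67, adjusted p = 0.0613) and with only the compared groups fitted (-1.62, adjusted p = 0.0895), and its adjusted p ran from 0.0393 to 0.420 over all alternatives.

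Usp18 also differed by stock, at 1.64, 3.29 and 6.79 CPM in SM2 and between 3.31 and 36.8 CPM with a median of 12.9 in BW. Herc6, the ligase that attaches ISG15 in rodents, was 0.630, 1.95 and 3.94 CPM in SM2 and between 1.79 and 17.0 CPM with a median of 6.24 in BW. All 3 SM2 animals were below the BW median for each gene, with 1 SM2 animal below every BW animal for Herc6 and 2 for Usp18. Both fell in SM2, Usp18 with a log2 fold change of -1.68 ± 0.56 (adjusted p = 0.0510) and Herc6 with a log2 fold change of -1.75 ± 0.62 (adjusted p = 0.0672). Usp18 no longer passed without C 10876 or NS 10865 (log2 fold change from -1.90 to -1.11, adjusted p from 0.105 to 0.298), nor Herc6 without C 10876, NS 10865 or S 10880 (log2 fold change from -2.08 to -1.24, adjusted p from 0.112 to 0.318), with sex as a covariate (-1.74, adjusted p = 0.102) or in males alone (-1.74, adjusted p = 0.101). Trim25, a ligase that activates RIG-I, fell by less than 2-fold (log2 fold change -0.85 ± 0.29, adjusted p = 0.0552), lower than the BW median in 3 of 3 SM2 animals, and did not pass without NS 10865 or S 10880 (log2 fold change from -0.81 to -0.76, adjusted p from 0.213 to 0.227). Over all alternatives the adjusted p ran from 0.00777 to 0.298 for Usp18, 0.0130 to 0.318 for Herc6 and 0.0226 to 0.227 for Trim25.

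Isg15, the ubiquitin-like protein itself, was between 4.53 and 37.5 CPM with a median of 9.74 in C, the top value being C 36001. Isg15 in NS was 3.53, 7.01, 9.77, 22.2 and 24.4 CPM and in S 3.05, 3.19, 4.99, 5.72 and 17.8 CPM. Of the S animals, only 35982 was above the C median, and S vs NS gave a log2 fold change of -0.97 ± 0.64 (adjusted p = 0.581). In SM2 vs BW it had a log2 fold change of -1.42 ± 0.65 (adjusted p = 0.156), and it passed with DESeq2 (-1.39, adjusted p = 0.0676) and without C 36001, S 35990 and S 36016 together (-1.35, adjusted p = 0.0919), range 0.0676 to 0.459 over all alternatives. The ADP-ribosyltransferases Parp9 and Parp14 had a log2 fold change of 0.92 ± 0.40 (adjusted p = 0.179) and a log2 fold change of 0.69 ± 0.29 (adjusted p = 0.163) in S vs C. Parp14 passed without C 35998 (0.94, adjusted p = 0.0556, range 0.0556 to 0.336 over all alternatives), and Parp9 had an adjusted p from 0.128 to 0.520 over its own. Parp9 ranged from 11.7 CPM in C 35972 to 175 CPM in NS 35987. Dtx3l, the ligase that binds Parp9, ranged from 14.4 to 58.3 CPM and had 0.25 ± 0.31 in S vs C.

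**Figure D3:**
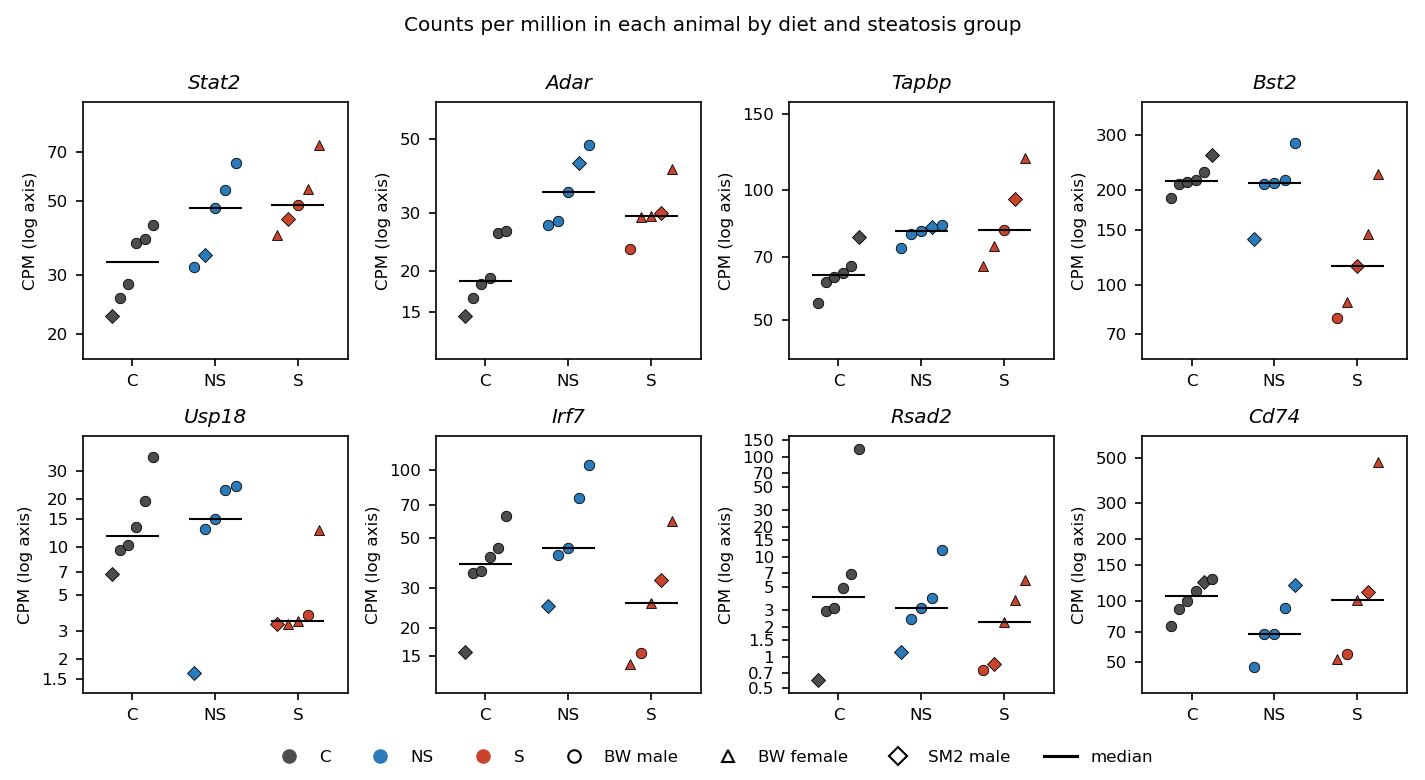
CPM (log axis) of 8 members in each animal by group, coloured by group, with symbols for stock and sex and a line at each group's median. Adar is higher in all 5 NS animals than in any C animal, Bst2 and Usp18 are lower in 4 of 5 S animals than in any C animal, and single animals carry Rsad2 (C 36001, 121 CPM) and Cd74 (S 35990, 477 CPM).

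The chemokines Cxcl9 and Cxcl10 draw activated T cells, and the guanylate-binding proteins Gbp2 and Gbp5 attack vacuoles and bacteria inside cells. Of these 4, 3 had log2 fold changes above 0 between S and C, 2 did between NS and C, and none passed there. Cxcl9 spanned 2.95 to 9.33 CPM over the 16 animals. Cxcl10 was at or below 3.61 CPM in 15 animals and 5.25 CPM in S 35990, and no count of it was found in S 36016, where a count of 0 allows up to 3 counts of the total of 4640733. Gbp2 was 12.1, 21.8 and 35.0 CPM in SM2 and between 20.1 and 78.9 CPM with a median of 41.9 in BW. The 3 SM2 animals all lay below the BW median, but only 1, C 10876, was outside the BW range. Gbp2 fell in SM2 (log2 fold change -1.04 ± 0.31, adjusted p = 0.0330), and no longer passed without C 10876 or NS 10865 (log2 fold change from -1.05 to -0.79, adjusted p from 0.135 to 0.170), with adjusted p from 0.00634 to 0.170 over all alternatives. Gbp5 did not exceed 1.81 CPM in any animal. The guanylate-binding proteins also have close paralogs, so their counts are less certain in the same way.

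Of the 8 class I processing genes, 6 had log2 fold changes above 0 in S vs C (median 0.32), 8 in NS vs C (median 0.17) and 7 in SM2 vs BW (median 0.33). Tapbp (tapasin) was between 54.8 and 77.7 CPM with a median of 63.6 in C. Tapbp in NS was 73.3, 79.2, 80.3, 81.9 and 82.8 CPM and in S 66.8, 74.0, 80.7, 95.5 and 119 CPM. All 10 HFD animals lay above the C median, with 4 NS and 3 S animals above every C animal. Tapbp rose in S by less than 2-fold (log2 fold change 0.43 ± 0.14, adjusted p = 0.0838) and did not pass in NS (log2 fold change 0.30 ± 0.14, adjusted p = 0.596). In S vs C the pass ended without C 35972, 35975, 36001 or 36007, NS 35963 or S 10880, 35982 or 36016 (log2 fold change from 0.29 to 0.45, adjusted p from 0.102 to 0.193), with sex as a covariate (0.45, adjusted p = 0.177), in males alone (0.45, adjusted p = 0.118), with only the compared groups fitted (0.43, adjusted p = 0.134) and without C 36001, S 35990 and S 36016 together (0.52, adjusted p = 0.194), in a range of 0.0457 to 0.194 over all alternatives. B2m, the light chain of every class I molecule, was between 882 and 1481 CPM with a median of 927 in C, 819, 1013, 1092, 1178 and 1204 CPM in NS and 321, 594, 731, 813 and 1398 CPM in S. S 36016 had the lowest of these values and the SM2 animal 10880 the highest in S, and S vs C gave a log2 fold change of -0.39 ± 0.27 (adjusted p = 0.379). Of the S animals, 4 of 5 lay below every C and every NS animal. B2m passed in S vs C without S 10880 and in BW animals alone.

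Of the class I genes, Nlrc5 and Psmb8 passed between stocks. Nlrc5 was 12.2, 27.1 and 41.4 CPM in SM2 and between 0.375 and 22.8 CPM with a median of 7.76 in BW. Psmb8, a catalytic subunit of the immunoproteasome, was 13.9, 27.4 and 47.0 CPM in SM2 and between 4.88 and 20.7 CPM with a median of 12.4 in BW. For each gene, 2 of 3 SM2 animals were above every BW animal and the third was above the BW median. Both rose, Nlrc5 with a log2 fold change of 1.95 ± 0.51 (adjusted p = 0.0166) and Psmb8 with a log2 fold change of 1.06 ± 0.30 (adjusted p = 0.0237), and both rested in part on S 10880, without which they no longer passed (Nlrc5 0.99, adjusted p = 0.315, Psmb8 0.53, adjusted p = 0.369). Their adjusted p ran from 0.00285 to 0.315 and from 0.00849 to 0.369 over all alternatives. Psmb9, another of its catalytic subunits, was 9.94, 19.8 and 34.2 CPM in SM2 and between 5.26 and 21.4 CPM with a median of 13.2 in BW, with a log2 fold change of 0.57 ± 0.34 (adjusted p = 0.281). The peptide transporter subunit Tap1 was 12.6, 18.4 and 49.0 CPM in SM2 and between 10.9 and 28.8 CPM with a median of 19.1 in BW, with a log2 fold change of 0.36 ± 0.30 (adjusted p = 0.456). The BW values of Nlrc5, Psmb8, Psmb9 and Tap1 had their lowest in S 36016, so that S held both ends of these genes, and in S vs C they had 0.51 ± 0.70, 0.71 ± 0.39, 0.20 ± 0.35 and 0.48 ± 0.29. With all animals Psmb9 and Tap1 did not pass, and Tap2 and Psmb10 passed in no comparison.

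**Figure D4:**
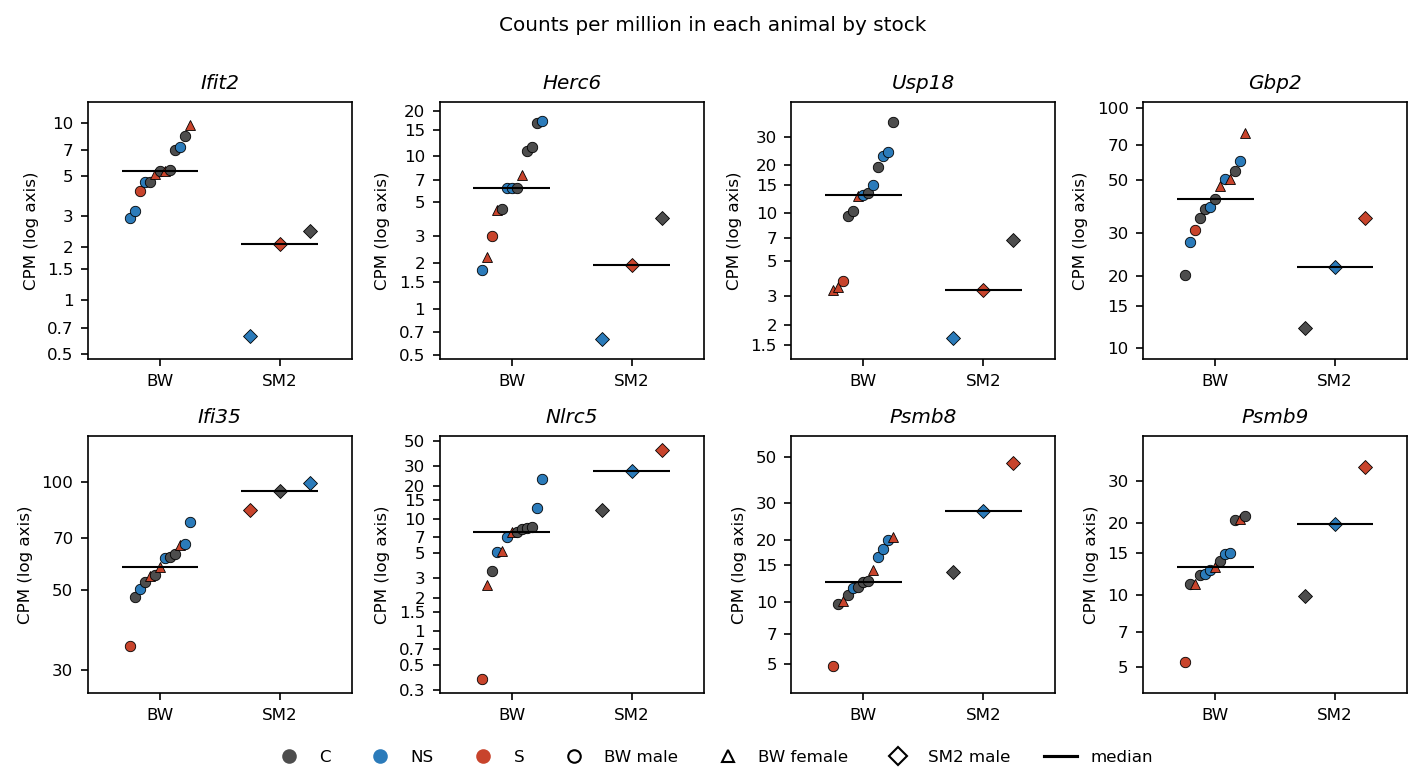
CPM (log axis) of 8 members in the 13 BW and 3 SM2 animals, coloured by diet group, with a line at each stock's median. Ifit2 is lower and Ifi35 higher in all 3 SM2 animals than in any BW animal, and for Nlrc5 and Psmb8 2 of 3 SM2 animals, NS 10865 and S 10880, lie above all BW animals.

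In class II presentation a single S animal stood apart. Cd74, the invariant chain that guides class II molecules to the endosome, was between 75.4 and 127 CPM with a median of 106 in C. In NS, Cd74 was 47.3, 68.4, 68.5, 91.7 and 119 CPM and in S 51.5, 54.8, 101, 110.1 and 477 CPM. The highest was S 35990, 3.74 times the next animal, and the 4 other S animals lay within the range of the remaining groups. S vs NS gave a log2 fold change of 1.01 ± 0.48 (adjusted p = 0.453), which became 0.011, adjusted p = 0.994 without S 35990, and over all alternatives the adjusted p ran from 0.310 to 0.994. Ciita, the class II regulator, was also highest there, 4.10 CPM, against at most 2.07 CPM in the other 15 animals. The pan-leukocyte marker genes summed to 139 CPM in S 35990 and to at most 50.0 CPM elsewhere, its Kupffer cell markers to 912 CPM and its dendritic cell markers to 26.6 CPM, each the highest of the 16 animals. The part of these cells in the Cd74 and Ciita values was not tested.

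How members moved together across animals was described for 13 pairs, genes that neighbour each other in RefSeq's assembly HU_Pman_BW_mat and regulators with the genes of their list, set after values had been seen. The permutation p-values (both sides, 100000 permutations) were adjusted over the 13. They treat animals of 3 diet groups and 2 stocks as exchangeable, so they are given as a description only. Over the 16 animals Rsad2 and Cmpk2 had Pearson's r = 0.924 (permutation p = 2e-05, adjusted 0.000260) and Spearman's rho = 0.856 (permutation p = 4e-05, adjusted 0.000520). Without the animals farthest from the median of Rsad2, 36001 and 35930, r was 0.765. Within the 13 BW animals r was 0.919 (permutation p = 0.000650, adjusted 0.00429) and rho 0.775 (permutation p = 0.00272, adjusted 0.0354), and r was 0.511 without 36001 and 36016. Ciita and Cd74 had Pearson's r = 0.857 (permutation p = 5e-05, adjusted 0.000325) and Spearman's rho = 0.779 (permutation p = 0.000690, adjusted 0.00448), with r = 0.727 without 35990 and 36016. Within the 13 BW animals r was 0.874 (permutation p = 0.000660, adjusted 0.00429) and rho 0.687 (permutation p = 0.0123, adjusted 0.0535), and r was 0.611 without 35990 and 36016. Tap1 and its neighbour Psmb9 had Pearson's r = 0.823 (permutation p = 0.000280, adjusted 0.00121) and Spearman's rho = 0.688 (permutation p = 0.00391, adjusted 0.0169), with r = 0.563 without 10880 and 36016. Within the 13 BW animals r was 0.753 (permutation p = 0.00485, adjusted 0.0210) and rho 0.588 (permutation p = 0.0381, adjusted 0.124), and r was 0.327 without 36016 and 35998. All these r stayed above 0 without the farthest animals, with Tap1 and Psmb9 the lowest within BW. The strand setting of the counting is not stated, so reads of overlapping neighbours could not be told apart.

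Nlrc5 and Psmb8 had Pearson's r = 0.790 (permutation p = 0.000760, adjusted 0.00247) and Spearman's rho = 0.515 (permutation p = 0.0432, adjusted 0.112). Within the 13 BW animals r was 0.647 (permutation p = 0.0281, adjusted 0.0608) and rho 0.247 (permutation p = 0.416, adjusted 0.540), and r was -0.195 without 36016 and 35987. Without 36016 and 10880, r of Nlrc5 with the 7 class I genes lay between -0.165 for Tapbp and 0.455 for Psmb8. It went from 0.644 to 0.0581 for B2m, 0.563 to -0.0714 for Tap1 and 0.610 to -0.0772 for Psmb9. For Psmb10 it went from 0.496 to -0.131 and for Tap2 from 0.342 to -0.0972. The animals left out, 36016 and 35987 within BW, were the farthest from the median of Nlrc5, and leaving them out narrows its range. Whether these relations rested on those animals was therefore not tested. The neighbours Dtx3l and Parp9, whose products act as a complex, had Pearson's r = -0.0117 (permutation p = 0.966, adjusted 0.966) and Spearman's rho = 0.218 (permutation p = 0.418, adjusted 0.508). As a description, the median r over all 28 pairs within class I was 0.490, against 0.143 over the 861 pairs of 42 members. It was 0.085 over the 55 pairs of antiviral effectors, 0.52 over the 3 pairs of RNA sensors and 0.857 for the 1 pair of class II genes. Within class I, r of Psmb8 with Tap1 went from 0.752 to 0.271 without S 10880 and S 36016. That of Tap2 with Psmb8 went from 0.482 to 0.424 without C 10876 and S 10880.

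**Figure D5:**
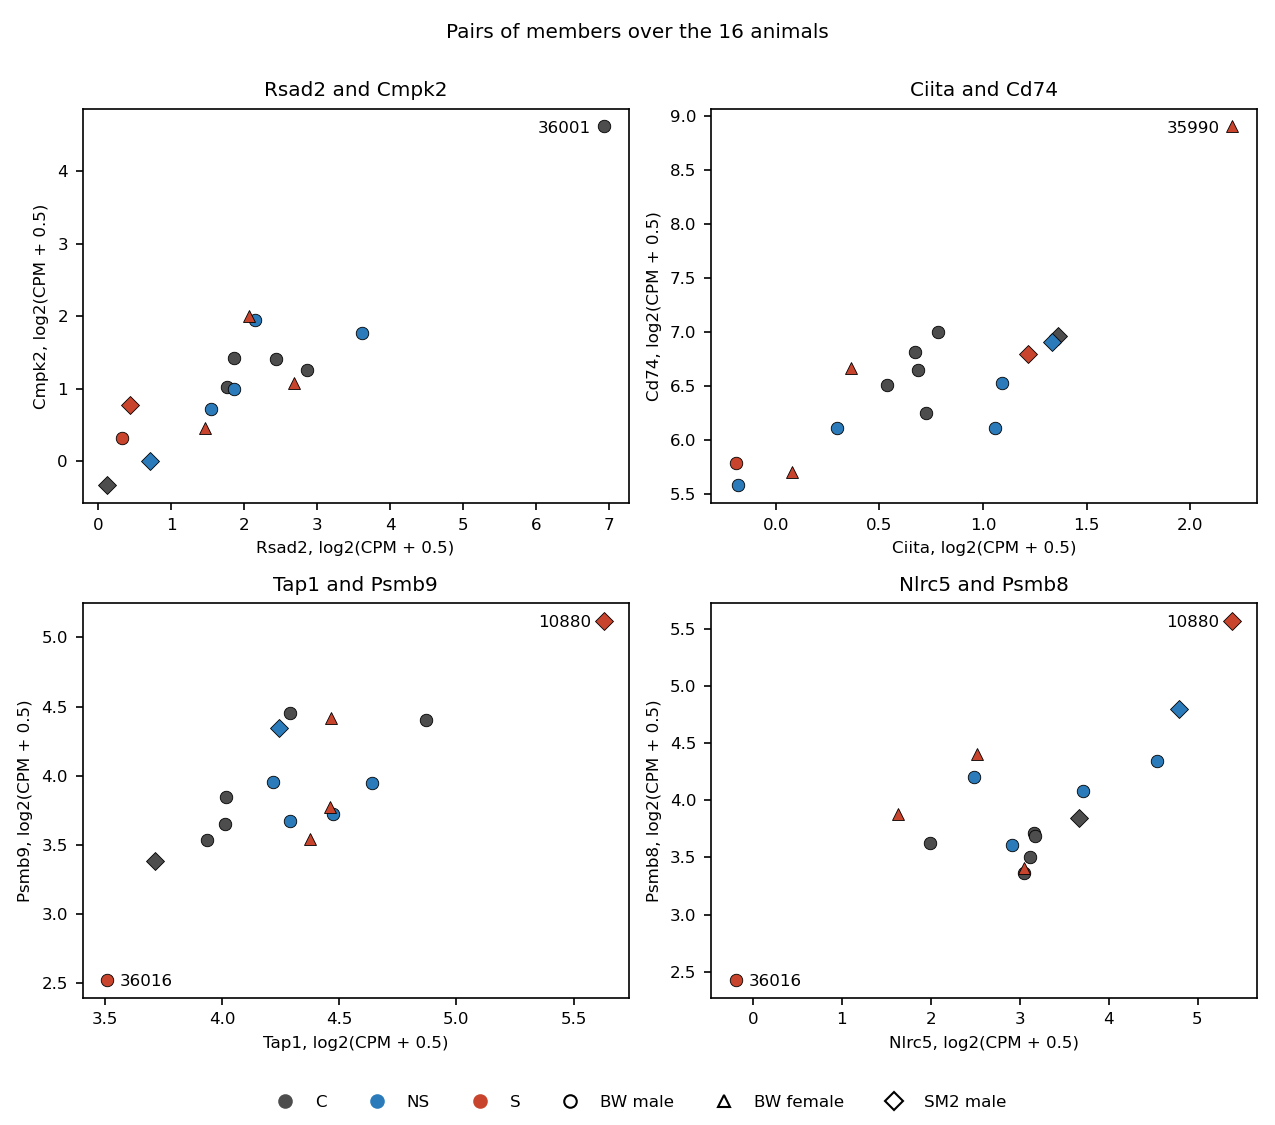
Log2(CPM + 0.5) of 4 pairs of members, 1 point per animal, coloured by group with symbols for stock and sex. Rsad2 and Cmpk2 (r = 0.924) and Ciita and Cd74 (r = 0.857) run together with C 36001 and S 35990 at their upper ends, while for Tap1 with Psmb9 and Nlrc5 with Psmb8 the ends are S 10880 and S 36016.

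Other genes of the interferon and antigen processing pathways, 88 listed and 65 in the table, gave 63 that were tested. In S vs C edgeR and DESeq2 each called 0 of 63, against 4.06% and 4.35% of all genes, with 16 (25.4%) at an unadjusted p under 0.05 in either tool, against 23.8% and 23.3%. In edgeR 6 (9.52%) passed the adjusted p alone, 1 higher and 5 lower in S, a smaller share than the 10.8% of all genes, and in DESeq2 8 (12.7%), against 14.3%. Ptpn2, the phosphatase that switches off JAK and STAT proteins, was between 18.1 and 26.5 CPM with a median of 22.1 in C and 13, 14.0, 15.7, 16.6 and 16.7 CPM in S. All 5 S animals lay below all 6 C animals. Such groups without overlap were found for 2 of 63 (3.17%), Ptpn2 and, higher in S, Pias1, a smaller share than that of all genes (4.19%). Ptpn2 fell (log2 fold change -0.54 ± 0.14, adjusted p = 0.0486), though it did not pass without C 36007 (-0.48, adjusted p = 0.111), with sex as a covariate (-0.45, adjusted p = 0.204), in males alone (-0.45, adjusted p = 0.232) or without C 36001, S 35990 and S 36016 together (-0.62, adjusted p = 0.157), in a range of 0.0120 to 0.232 over all alternatives. Psmb6, the constitutive proteasome subunit that Psmb9 replaces, was between 169 and 292 CPM with a median of 276 in C and 119, 166, 168, 193 and 201 CPM in S. It was below the C median in 5 of 5 S animals and fell (log2 fold change -0.60 ± 0.17, adjusted p = 0.0574), and did not pass without C 35975, 36001 or 36007 or S 36016 (log2 fold change from -0.59 to -0.50, adjusted p from 0.112 to 0.118), in males alone (-0.72, adjusted p = 0.127) or without C 36001, S 35990 and S 36016 together (-0.52, adjusted p = 0.232), in a range of 0.0145 to 0.232 over all alternatives.

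The other 4 genes past that limit are named after their values were seen. Psmb5 and Psmb7, which Psmb8 and Psmb10 replace in the immunoproteasome, fell with a log2 fold change of -0.52 ± 0.17 (adjusted p = 0.0884) and a log2 fold change of -0.50 ± 0.15 (adjusted p = 0.0628), below the C median in 5 of 5 S animals each. Ifngr2, a subunit of the interferon gamma receptor, fell in 4 of 5 (log2 fold change -0.62 ± 0.20, adjusted p = 0.0836), and the kinase Jak1 rose in 5 of 5 (log2 fold change 0.56 ± 0.19, adjusted p = 0.0923). The pass of Psmb5 ended without C 35972, 35975, 36001 or 36007, NS 35937, 35963 or 35987 or S 10880, 35982 or 36016 (log2 fold change from -0.52 to -0.42, adjusted p from 0.101 to 0.174), with no filter (-0.52, adjusted p = 0.102) and without C 36001, S 35990 and S 36016 together (-0.43, adjusted p = 0.309). The pass of Psmb7 ended without C 35975, 36001 or 36007 or S 35982, 35990 or 36016 (log2 fold change from -0.51 to -0.43, adjusted p from 0.102 to 0.127), with sex as a covariate (-0.40, adjusted p = 0.259), in males alone (-0.40, adjusted p = 0.290) and without C 36001, S 35990 and S 36016 together (-0.36, adjusted p = 0.331). The pass of Ifngr2 ended without C 10876, 35972, 35975, 36001 or 36007, NS 35963 or S 10880, 35955, 35982 or 36016 (log2 fold change from -0.66 to -0.47, adjusted p from 0.101 to 0.155), in BW animals alone (-0.55, adjusted p = 0.150) and with only the compared groups fitted (-0.62, adjusted p = 0.122). The pass of Jak1 ended without C 35972, 35975, 36001 or 36007, NS 35937 or 35987 or S 10880, 35982, 35990 or 36016 (log2 fold change from 0.45 to 0.60, adjusted p from 0.101 to 0.182), with no filter (0.56, adjusted p = 0.104), in males alone (0.75, adjusted p = 0.113) and without C 36001, S 35990 and S 36016 together (0.53, adjusted p = 0.296). With sex as a covariate (-1.12, adjusted p = 0.0211) and in males alone (-1.12, adjusted p = 0.0213) Ifngr2 fell by over 2-fold. For Psmb5, Psmb7, Ifngr2 and Jak1 the adjusted p over all alternatives ran from 0.0367 to 0.309, 0.0147 to 0.331, 0.0211 to 0.155 and 0.0393 to 0.296. In NS vs C edgeR called 0 of 63, with 5 at unadjusted p under 0.05 (7.94%, against 8.29% of all genes), and DESeq2 called 0, with 6 (9.52%, against 8.48%), led in edgeR by Uba7, the enzyme that activates ISG15, with a log2 fold change of 1.16 ± 0.38 (adjusted p = 0.448), and Ptpn2, with a log2 fold change of -0.34 ± 0.14 (adjusted p = 0.594). No pathway gene had NS and C without overlap, against 0.989% of all genes. In S vs NS both tools called 0 of 63, with 6 at that unadjusted p (9.52%, against 10.9% of all genes in edgeR and 10.1% in DESeq2), led in edgeR by Rfxap, part of the complex that binds class II promoters, with a log2 fold change of -0.69 ± 0.26 (adjusted p = 0.374), and Ifitm3, which blocks viral entry, with a log2 fold change of -0.60 ± 0.22 (adjusted p = 0.376). The values of Rfxap and of Ifitm3 in all 5 S animals were below those of all 5 NS animals, which made 2 of 63 (3.17%), against 149 of all genes (1.18%).

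By stock, 8 of 63 pathway genes were called (12.7%), 1 higher and 7 lower in SM2, beside 10.8% of all genes, and 17 (27%) passed the adjusted p alone, 7 higher and 10 lower, beside 21.8%. DESeq2 likewise called 8 (12.7%), beside 10.4%, and had 18 (28.6%) past the adjusted p, beside 23.1%. At an unadjusted p under 0.05 either tool had 19 (30.2%), close to the 29.1% of all genes in edgeR and 29% in DESeq2. The stocks did not overlap for 8 (12.7%), Ctss, Ddx60, Gbp3, Gbp7, H2-DMa, Ptpn6, Tbk1 and Ticam1, beside 6.81%. Ddx60, a helicase that aids RNA sensing, was 2.36, 4.29 and 7.80 CPM in SM2 and between 12.5 and 77.1 CPM with a median of 26.0 in BW, with a log2 fold change of -2.71 ± 0.61 (adjusted p = 0.00667). Gbp3 was 1.77, 4.79 and 5.97 CPM in SM2 and between 7.91 and 25 CPM with a median of 20.8 in BW (log2 fold change -2.23 ± 0.35, adjusted p = 0.000399), and Gbp7 also fell (log2 fold change -1.57 ± 0.40, adjusted p = 0.0143), though it did not pass without S 10880 (-1.38, adjusted p = 0.104, range 0.00153 to 0.104 over all alternatives). H2-DMa, which edits class II peptides, was 3.65, 5.02 and 5.92 CPM in SM2 and between 6.76 and 58.3 CPM with a median of 21.7 in BW (log2 fold change -2.30 ± 0.48, adjusted p = 0.00410). The SM2 values of these 4 were the lower ones. Ctss, the protease that trims the invariant chain, fell likewise (log2 fold change -1.65 ± 0.53, adjusted p = 0.0442), with all 3 SM2 animals below the BW animals, and did not pass without NS 10865 or S 10880 (log2 fold change from -1.54 to -1.23, adjusted p from 0.192 to 0.248, range 0.00242 to 0.248 over all alternatives). Kupffer cell markers summed to 136 to 304 CPM in SM2 and 257 to 912 CPM in BW, and their part in the Ctss and H2-DMa values was not tested. Sinusoidal endothelial markers summed to 102 to 150 CPM in SM2 and 127 to 269 CPM in BW, but the single markers differed. Pecam1 was 7.19 to 23.4 CPM in SM2 and 30.4 to 87.5 CPM in BW. Lyve1 went the other way in NS 10865 and C 10876, with 30.1 and 12.9 CPM against at most 6.96 CPM in BW, and was 0.975 CPM in S 10880. Clec4g overlapped, at 28.5 to 44.8 CPM in SM2 and 20.1 to 53.9 CPM in BW. The part of either cell type in the other differences between stocks, of members or pathway genes, was not tested.

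Ifngr1, the ligand-binding subunit of the interferon gamma receptor, and Lgals3bp, a secreted glycoprotein, fell with a log2 fold change of -1.08 ± 0.31 (adjusted p = 0.0278) and a log2 fold change of -1.24 ± 0.35 (adjusted p = 0.0231), below the BW median in 3 of 3 SM2 animals each. Ifngr1 did not pass without NS 10865 or S 10880 (log2 fold change from -0.98 to -0.83, adjusted p from 0.154 to 0.196) nor Lgals3bp without C 10876 or NS 10865 (log2 fold change from -0.96 to -0.83, adjusted p from 0.147 to 0.187), range 0.00507 to 0.196 and 0.000588 to 0.187 over all alternatives. Ticam1 (TRIF), the adaptor of Toll-like receptor 3, was 4.51, 4.82 and 5.17 CPM in SM2 and between 0.578 and 3.57 CPM with a median of 1.61 in BW, all 3 above the 13, and rose (log2 fold change 1.46 ± 0.37, adjusted p = 0.0133). Tbk1, the kinase that activates Irf3, was 33.7, 36.9 and 40.1 CPM in SM2 and between 55.2 and 67.8 CPM with a median of 62.3 in BW, all 3 below the 13, and fell by less than 2-fold (log2 fold change -0.75 ± 0.11, adjusted p = 0.000327). Ddx60, Gbp3, H2-DMa, Ticam1 and Tbk1 passed the adjusted p under 0.1 without each animal in turn.

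Markers of other liver cells were summed for each animal, as a measure of what else the tissue held. Pan-leukocyte markers (5 of 5, Laptm5 with the highest mean CPM) summed to between 27.5 CPM in C 36001 and 139 CPM in S 35990. T and NK cell markers (6 of 10, Trac with the highest mean CPM) summed to between 3.05 CPM in C 10876 and 13.4 CPM in S 35990. B cell markers (5 of 5, Cd79a with the highest mean CPM) summed to between 1.25 CPM in C 35975 and 6.01 CPM in S 35990. Kupffer cell markers (7 of 8, Marco with the highest mean CPM) summed to between 136 CPM in S 10880 and 912 CPM in S 35990. Neutrophil and monocyte markers (4 of 7, S100a9 with the highest mean CPM) summed to between 4.71 CPM in S 35955 and 76.0 CPM in C 35972. Dendritic cell markers (6 of 6, Itgax with the highest mean CPM) summed to between 4.75 CPM in NS 35937 and 26.6 CPM in S 35990. The neutrophil and monocyte sum was 4.71 to 24.8 CPM in S, 10.1 to 55.7 CPM in NS and 27.0 to 76.0 CPM in C, without overlap between S and C. S100a8 and S100a9 carried this, while Csf3r and Ccr2 overlapped. Sinusoidal endothelial markers (5 of 6, Stab2 with the highest mean CPM) summed to between 102 CPM in S 10880 and 269 CPM in S 35982. Cholangiocyte markers (3 of 4, Krt7 with the highest mean CPM) summed to between 1.67 CPM in S 35982 and 7.88 CPM in S 36016. Stellate cell markers (5 of 5, Dcn with the highest mean CPM) summed to between 136 CPM in NS 10865 and 2264 CPM in S 36016. Of the stellate sum of S 36016, Col1a1 alone made 2058 CPM, and its Dcn was 135 CPM, within the range of the other animals. No listed gene that was in the table was at 0 in all 16 animals, and the part of these cells in the differences between groups was not tested.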

How the data were processed

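Per the study's methods, the authors extracted liver RNA, made libraries with a kit that marks strand, aligned paired-end reads to the genome HU_Pman_2.1 with STAR 2.7.2 and ran featureCounts of Subread on the Ensembl annotation, keeping only reads with a unique position. The deposited values are raw counts per gene symbol. The strand setting of the counting and the conversion to symbols are not stated, so reads of overlapping or antisense neighbours cannot be told apart. The 16 columns of animals were matched to labels by animal number, with 0 columns not mapped and 0 lines that name no gene.

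The genes that reached 0.5 CPM in 1 animal or more were tested with edgeR 4.0.16 (R 4.3.3, limma 3.58.1) by quasi-likelihood F-tests with TMM scaling, fitted on group over all 16 animals for the diet comparisons and on group and stock for SM2 vs BW. P-values were adjusted by Benjamini and Hochberg's method over all 12639 genes tested. A gene was called at an adjusted p under 0.1 and a fold of at least 2. Calculations on log2(CPM + 0.5) and figures used Python 3.11.15, numpy 2.4.6, pandas 2.3.3, scipy 1.17.1 and matplotlib 3.10.9. The fit was also run on simulated data, and no result given here rests on that run. Alternatives were DESeq2 1.42.0, RLE scaling, no filter or a stricter filter, other call limits, stock or sex as a covariate, BW or male animals alone, only the groups compared, and each animal left out in turn. Leaving out C 36001, S 35990 and S 36016 together was added after seeing the data. Neighbouring genes were taken from RefSeq's assembly HU_Pman_BW_mat 3.1, another build, in which 38 of 44 symbols were found. The p-values rest on the spread between animals, and a count of 0 allows up to 3 counts, for counting error only.

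The members and the lists were chosen with earlier results of these data known. Genes named in the text were every member called, the 3 members with the smallest p in each direction of each comparison, the member of each role list with the highest mean CPM, fixed members such as Isg15, Irf7 and Tap1, and, of the other pathway genes, those called and the 2 with the smallest p in each comparison. Other members named singly (Irf1, Irf2, Irf3, Irf8, Ddx58, Dhx58, Oas3, Oasl1, Xaf1, Ifi44, Trim25, Parp14, Dtx3l, Gbp5, Tap2 and Psmb10), the pathway genes Psmb5, Psmb7, Ifngr2 and Jak1 in S vs C, Pias1 and Ptpn6, and the 13 pairs were chosen after their values were seen.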

Additional observations from a re-analysis of the deposited data

Results flagged for a closer look

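Of 84 gene and group combinations of the 28 named members, 15 (17.9%) held a highest or lowest animal whose gap to the nearest other, divided by the range of its group, passed Dixon's 95% critical value, where chance would mark about 1 in 20 groups of normally distributed values. The gaps were taken on CPM without logs, and 14 of the 15 lay on the high side, so their share is not read as an excess over chance. Many of the genes share animals, so these are not separate events. C 36001 was highest in its group for Rsad2 (121 CPM, next 6.77), Cmpk2 (24.0 CPM, next 2.19) and Isg15 (37.5 CPM, next 11.4). The SM2 animal C 10876 was highest for Ifi35 (94.2 CPM, next 63.2) and Ciita (2.07 CPM, next 1.22), and C 35975 for B2m (1481 CPM, next 943). In NS, 35930 was highest for Rsad2 (11.8 CPM, next 3.95), and the SM2 animal 10865 lowest for Irf9 (40.0 CPM, next 67.2). In S, the female 35982 was highest for Usp18 (12.8 CPM, next 3.75), Isg15 (17.8 CPM, next 5.72) and Oas2 (0.556 CPM, next 0.122, a gene near the floor of detection). The female 35990 was highest in S for Cd74 (477 CPM, next 110.1) and Cxcl10 (5.25 CPM, next 1.48), and the SM2 animal 10880 for Nlrc5 (41.4 CPM, next 7.76) and Tap1 (49.0 CPM, next 21.6). The cause of these values was not tested.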

How the results depend on the processing

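In S vs C, the count of called members, 0 by edgeR, became 1 with DESeq2, a stricter low-count filter, sex as a covariate, male animals alone or only the groups compared, 2 with stock as a covariate or BW animals alone, and 4 with no fold limit. Members past adjusted p alone, 4, became 8 with stock as a covariate, 1 with sex as a covariate or male animals alone, and 0 at adjusted p under 0.05 or without C 36001, S 35990 and S 36016, an alternative chosen after seeing the data. The 513 genes called became 1359 with no fold limit, 209 at adjusted p under 0.05 and 78 without those 3 animals. Leaving out 1 animal at a time gave 0 to 2 called members, 0 to 8 past adjusted p alone and 192 to 573 genes.

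In NS vs C, members past adjusted p alone, 0, became 1 with DESeq2, and 0 to 1 without 1 animal. The 9 genes called became 53 with DESeq2, 29 with stock as a covariate and 5 at adjusted p under 0.05, and 2 to 29 without 1 animal. The 5 members at unadjusted p under 0.05 became 3 with DESeq2 and 1 without the 3 animals, and 1 to 8 without 1 animal. The log2 fold change of Rsad2 turned to 0.28 and that of Cmpk2 to 0.23 without the 3 animals, and without 1 animal they ran from -3.12 to 0.29 and from -1.82 to 0.24, above 0 without C 36001.

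In S vs NS, called members and members past adjusted p alone, 0 each, became 1 each among males, and stayed 0 without any 1 animal. The 1 gene called became 71 with DESeq2, 17 with stock as a covariate, 191 with sex as a covariate, 18 in BW animals alone, 157 in males alone, and 0 with only the groups compared or without the 3 animals, and 1 to 15 without 1 animal. The 4 members at unadjusted p under 0.05 became 2 with sex as a covariate, 7 in BW animals alone and 0 without the 3 animals, and 2 to 6 without 1 animal. With sex as a covariate the log2 fold change of Samhd1 turned to -0.24 and that of Ifit2 to -0.29, as they did among males alone, -0.24 and -0.29.

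In SM2 vs BW, 6 called members became 10 and 8 past adjusted p alone became 17 without the 3 animals, the latter 5 at adjusted p under 0.05, and the 1370 genes called became 2752 with no fold limit. Without 1 animal there were 3 to 8 called members, 4 to 12 past adjusted p alone, 6 to 19 at unadjusted p under 0.05 and 868 to 1448 genes. The looser and stricter limits change the counts by their construction, and for all other changes the cause was not tested.

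Among values of the members and pathway genes followed over the alternatives, 316 in S vs C kept their direction and side of the limit, 111 no longer passed, 21 newly passed and 0 turned. In NS vs C the numbers were 246, 0, 2 and 4, in S vs NS 219, 0, 1 and 4, and in SM2 vs BW 753, 49, 23 and 0. No followed gene passed in NS vs C or S vs NS with all animals, so no pass could be lost there. The alternative with no fold limit reused the same fit and adjusted p, so its 66 values were kept by construction. No paired analysis was possible because the replicate numbers only follow the order of samples and the animals of different groups are unpaired. Sex cannot be told apart from steatosis in the BW animals of group S beyond the 1 BW male. Genes with few counts, Oas2 and Oas3 among the members, were limited by depth, from 4640733 counts in an animal.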
